A study of Mus musculus with 50 samples.

Results

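The genes described here are 9 that mark cortical and other glutamatergic neurons, *Slc17a7*, *Slc17a6*, *Neurod2*, *Neurod6*, *Tbr1*, *Emx1*, *Fezf2*, *Rorb* and *Cux2*. They were chosen by symbol, and all 9 are among the 24552 genes listed in both deposited count tables. They were followed through RNA-seq of the mouse nucleus accumbens (NAc), a striatal region whose neurons are mostly GABAergic medium spiny neurons (MSNs), as a measure of RNA from other neurons in the tissue punch or in the precipitate. RiboTag (RT) mice carry an HA-tagged ribosomal protein that is made in cells with Cre recombinase, so that an antibody against HA pulls down ribosomes and their mRNA from those cells (IP), while RNA of the rest of the homogenate comes from all cells of the punch (input).

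Mice of the genotypes RT;D1-Cre and RT;D2-Cre, on C57BL/6 per the labels (C57BL/6J in the study's methods) and between 8 and 12 weeks of age, were non-defeated controls (Con) or were exposed daily to an aggressive CD1 male on up to 10 days, for a time on which the labels and the methods differ, and were then sorted by social interaction into resilient (Res) and susceptible (Sus) mice. There were 13 D1 IPs (4 Con, 4 Res and 5 Sus), 15 D2 IPs (5 of each) and 9 inputs of each line (3 of each), and every library pooled NAc punches of 2 mice. A second table held 4 D1 IPs of male RT; Sirt1-floxed; D1-Cre mice without social defeat, labelled Sirt1-KO, beside the same 4 D1 Con libraries. The age of the Sirt1-KO mice is not given in the labels. The Cre transgenes are bacterial artificial chromosomes driven by a dopamine receptor promoter, so the HA tag marks any cell of the punch in which that promoter had been active and not MSNs alone. IP libraries held 21591075 to 31009626 counts on genes, inputs 18384265 to 28179940 and Sirt1-KO libraries 22174187 to 31785984. In IPs against inputs, the astrocyte, oligodendrocyte, microglia and endothelial lists had medians between −4.42 and −3.04 (log2) in the D1 line and between −3.98 and −3.36 in the D2 line, the interneuron list −1.83 and −1.03, and the MSN and pan-neuronal lists 1.05 and 0.91 in the D1 line and 1.74 and 0.68 in the D2 line. One pool, D2 Sus 1, was singled out after the data were seen. Its input and IP held the least *Slc17a7* of their kind, and the results below that move most with it are also given without it. Defeated mice came from several rounds of defeat, and the round of each pool is not given in the sources used here, so p-values measure the spread between these pools.

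Neurons that release glutamate load it into synaptic vesicles with a vesicular transporter, which is VGLUT1 (*Slc17a7*) in most cortical, hippocampal and basolateral amygdala neurons and VGLUT2 (*Slc17a6*) in most thalamic, hypothalamic and brainstem neurons. The NAc receives their axons but holds few of their cell bodies, and MSNs release GABA. The other members are transcription factors of the cortical glutamatergic lineage: *Emx1* and *Fezf2* act early in the dorsal forebrain and in deep-layer projection neurons, *Neurod2* and *Neurod6* are bHLH factors of differentiating and mature excitatory neurons that bind E-boxes (CANNTG), *Tbr1* is a T-box factor of layer 6, *Rorb* is a nuclear receptor of layer 4 and *Cux2* is a homeodomain factor of upper layers. Several of these factors are also found in other cells, *Cux2* in interneurons for example.

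The promoters of *Slc17a7* and of the transcription factors whose levels followed it most closely over the inputs are shown, with that of *Slc17a6* for contrast. In D1 IPs the closest was *Emx1*, whose window is not printed. Each is the RefSeq window of GRCm38.p6 from 250 bases before to 50 bases after the transcript start, read 5′ to 3′ on the gene's strand, with every CANNTG in capitals.
Slc17a7 (chr7:45163671-45163970, strand +): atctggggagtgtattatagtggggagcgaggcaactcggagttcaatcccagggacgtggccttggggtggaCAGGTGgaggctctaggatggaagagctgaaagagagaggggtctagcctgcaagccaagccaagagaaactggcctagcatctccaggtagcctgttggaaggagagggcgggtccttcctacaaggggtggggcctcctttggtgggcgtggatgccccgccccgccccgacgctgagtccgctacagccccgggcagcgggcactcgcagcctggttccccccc
Neurod2 (chr11:98329596-98329895, strand -): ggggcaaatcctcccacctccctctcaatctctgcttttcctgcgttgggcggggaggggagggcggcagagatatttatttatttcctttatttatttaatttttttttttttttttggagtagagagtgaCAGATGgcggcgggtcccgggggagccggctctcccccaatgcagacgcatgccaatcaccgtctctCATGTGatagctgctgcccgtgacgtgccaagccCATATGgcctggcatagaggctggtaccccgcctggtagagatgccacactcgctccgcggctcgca
Neurod6 (chr6:55681214-55681513, strand -): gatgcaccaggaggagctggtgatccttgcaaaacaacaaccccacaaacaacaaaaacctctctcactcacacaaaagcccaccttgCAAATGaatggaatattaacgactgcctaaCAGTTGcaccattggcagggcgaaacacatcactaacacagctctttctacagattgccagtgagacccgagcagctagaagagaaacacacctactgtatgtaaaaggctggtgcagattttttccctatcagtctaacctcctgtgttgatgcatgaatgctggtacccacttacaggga
Tbr1 (chr2:61804203-61804502, strand +): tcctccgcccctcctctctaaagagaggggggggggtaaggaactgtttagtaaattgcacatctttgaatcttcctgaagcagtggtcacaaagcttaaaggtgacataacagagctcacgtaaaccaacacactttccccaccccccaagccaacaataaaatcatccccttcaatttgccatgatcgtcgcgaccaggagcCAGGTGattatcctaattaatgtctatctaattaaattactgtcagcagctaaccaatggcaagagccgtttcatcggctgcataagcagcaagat
Slc17a6 (chr7:51621580-51621879, strand +): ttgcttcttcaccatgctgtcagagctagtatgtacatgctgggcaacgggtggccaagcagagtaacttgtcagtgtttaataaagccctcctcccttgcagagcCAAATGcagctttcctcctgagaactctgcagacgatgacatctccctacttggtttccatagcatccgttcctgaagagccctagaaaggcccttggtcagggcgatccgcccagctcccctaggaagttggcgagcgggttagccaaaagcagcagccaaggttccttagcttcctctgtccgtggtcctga
All 9 members had such windows, 12 in all because *Slc17a6*, *Rorb* and *Cux2* have 2 starts each. CANNTG, which reads the same on both strands, was present in 11 of the 12 windows and in 72.3% of 32851 mouse promoter windows of the same length. CAGATG, searched on both strands and a subset of CANNTG, was in 3 windows (*Neurod2*, the second start of *Slc17a6* and the second start of *Cux2*) and in 17.2% of all windows, and CAGCTG was in none of them and in 16.3% of all. The *Fezf2* window held no CANNTG.

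In GRCm38 the genes lie at chr7:45163949-45176142 (*Slc17a7*, plus strand), chr7:51622006-51671119 (*Slc17a6*, plus), chr11:98325415-98329648 (*Neurod2*, minus), chr6:55677822-55681263 (*Neurod6*, minus), chr2:61802930-61814114 (*Tbr1*, plus), chr6:85187438-85204462 (*Emx1*, plus), chr14:12342094-12348189 (*Fezf2*, minus), chr19:18930605-19111196 (*Rorb*, minus) and chr5:121856366-122050102 (*Cux2*, minus), and all are protein coding. Reads count toward annotated exons. Within *Slc17a6* the unconfirmed transcript *Gm45072* overlaps 929 bases on the same strand, *Slc17a7* holds the microRNA gene *Mir7055*, and *Cux2* has the antisense genes *Gm3970* and *Gm15637*, so reads of these genes may not be separable from those of the members.

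Per kilobase of exon, *Slc17a7* was the highest member in every kind of library. Its normalised level, in CPM (counts scaled to a common library size) per kilobase, was 121 ± 39.4 (SD, n = 13) in D1 IPs, 25.2 ± 13.3 (SD, n = 15) in D2 IPs and 78.7 ± 42.1 (SD, n = 18) in inputs. In inputs and in D1 IPs *Tbr1*, *Neurod2* and *Neurod6* followed, at 9.26 ± 4.26, 8.48 ± 4.64 and 6.34 ± 3.65 CPM per kilobase in inputs, with ranges that overlapped. *Cux2*, *Slc17a6* and *Rorb* came next in inputs, at 3.97 ± 0.241, 3.21 ± 1.49 and 3.09 ± 0.328, and *Fezf2* and *Emx1* were lowest, at 0.998 ± 0.512 and 0.865 ± 0.473 (SD, n = 18 each). In D2 IPs *Neurod2*, *Cux2*, *Tbr1* and *Neurod6* lay between 3.00 and 3.30 CPM per kilobase on average and their order was within their spread. *Emx1* and *Fezf2* were counted at low depth in some D2 IPs, with a lowest library of 1 and 4 counts, so their levels there carry the largest counting error.

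**Figure D1:**
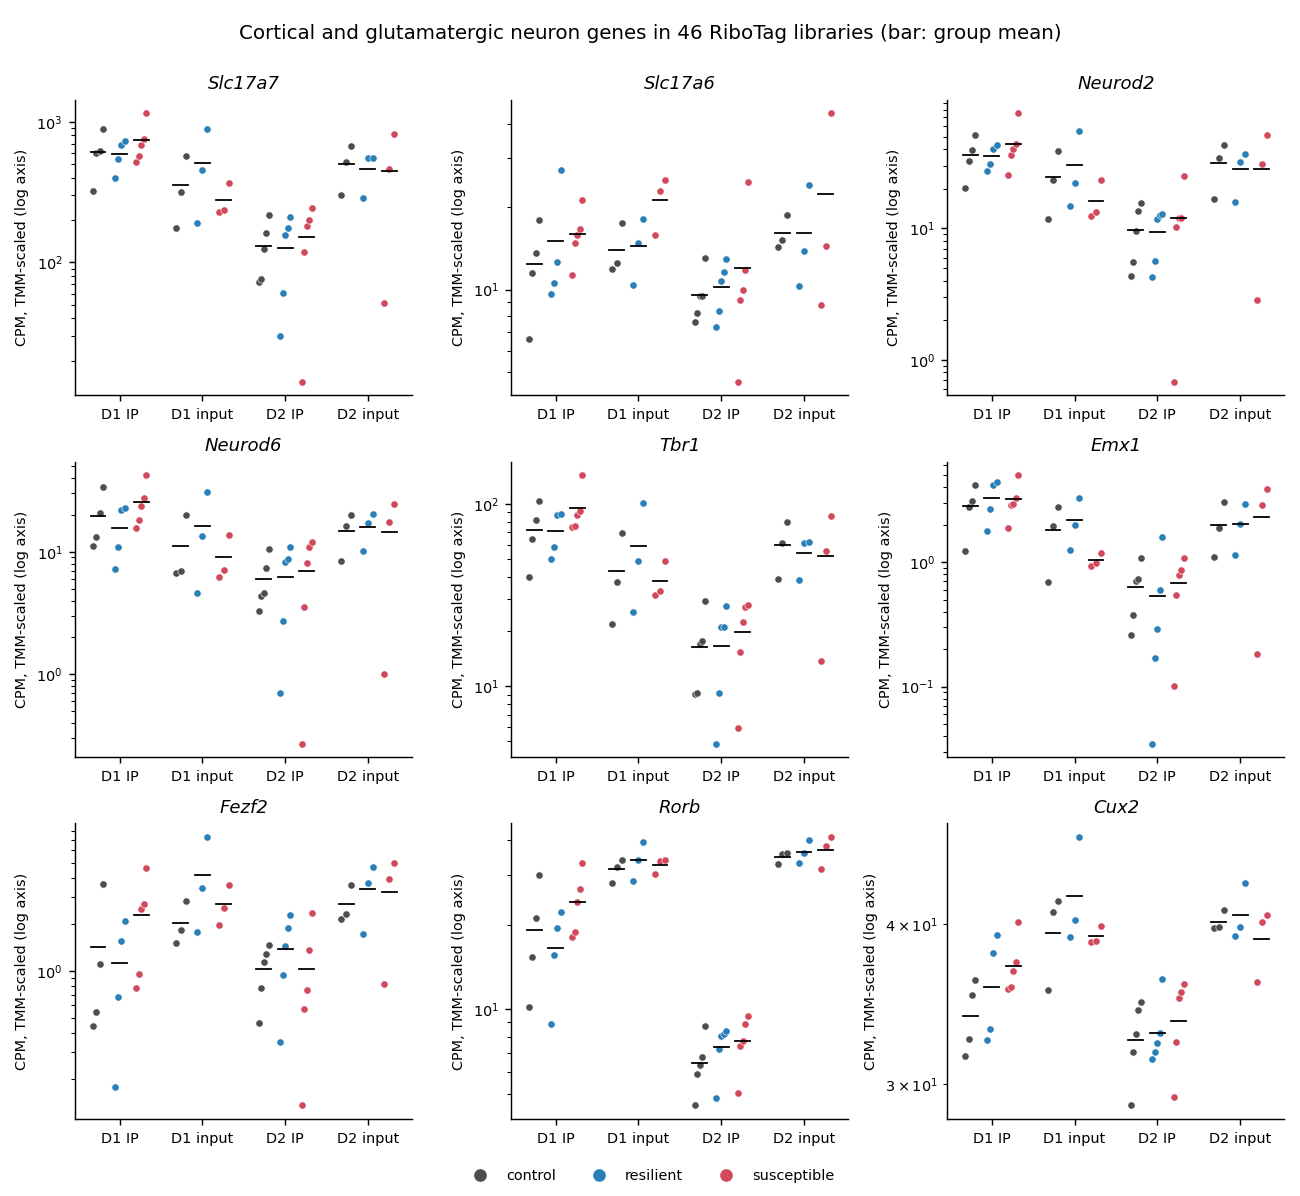
CPM of each gene (log axis, TMM-scaled) in the 46 IP and input libraries, by line and kind of library on the x axis. Points are libraries coloured by stress group, and bars are group means. *Slc17a7* and *Tbr1* in D1 IPs lie above every D2 IP, *Rorb* in D2 IPs lies below every D2 input, and *Cux2* spans a narrow range throughout.

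In the D2 line, RNA of 8 of the 9 genes was lower in IPs than in inputs. In the D1 line 2 genes were lower and 2 higher in the main fit. With each D1 IP paired to the input of its pool, 2 were lower and 5 higher. The comparison asks how far each precipitate was depleted of RNA from neurons other than its target. In bulk samples, fewer cells of a type and less RNA per cell cannot be told apart. A gene was called where the fold change was over 1.5 and the adjusted p under 0.05. By this rule 30.8% of all genes tested were called lower in the D2 line. In the D1 line 29.3% were called lower and 13.8% higher, 43.1% in all, which was close to the share of the members in the main fit. *Slc17a7* was the most abundant of the genes. D2 IPs ranged from 14.1 CPM through a median of 155.9 to 244.6 (n = 15) and D2 inputs from 51.1 through 520.4 to 820.5 (n = 9). All but 1 of the inputs lay above every IP, and the exception was the input of pool D2 Sus 1. The fit gave 3.55-fold less in the IP (log2 fold change −1.83 ± 0.34 (SE), adjusted p = 5.82e-06, edgeR quasi-likelihood with Benjamini-Hochberg adjustment).

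The other transporter, *Slc17a6*, was lower in D2 IPs by a smaller fold (log2 fold change −0.80 ± 0.22 (SE), adjusted p = 0.00123). It ranged from 4.62 through a median of 9.46 to 24.6 CPM in D2 IPs and from 8.80 through 14.4 to 43.8 CPM in D2 inputs, and the groups overlapped. Without the input of pool D2 Sus 1, which held 43.8 CPM, the value was −0.44 (adjusted p = 0.0512) and no longer past the threshold, and without both libraries of that pool it was −0.63 (adjusted p = 0.00243) and past it. *Neurod2* and *Neurod6* were also lower in D2 IPs. *Neurod2* ranged from 0.679 through 11.7 to 25.1 CPM in the IPs and from 2.86 through 32.3 to 51.6 CPM in the inputs (log2 fold change −1.56 ± 0.33 (SE), adjusted p = 4.7e-05). *Neurod6* ranged from 0.272 through 7.44 to 12.0 CPM in the IPs and from 1.01 through 17.4 to 24.6 CPM in the inputs (log2 fold change −1.27 ± 0.38 (SE), adjusted p = 0.00272). In both genes 6 of 9 inputs exceeded every IP, and the inputs of D2 Con 3, D2 Res 3 and D2 Sus 1 lay within the range of the IPs.

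*Tbr1* followed the same order, with D2 IPs from 4.85 through 17.8 to 29.5 CPM and D2 inputs from 13.7 through 61.2 to 85.8 CPM (log2 fold change −1.68 ± 0.27 (SE), adjusted p = 5.98e-07), and again the input of D2 Sus 1 was the only one that did not exceed every IP. *Emx1*, which marks the dorsal forebrain lineage, fell by 1.83 on the log2 scale (SE 0.36, adjusted p = 1.77e-05), and *Fezf2*, of subcerebral projection neurons, fell by 1.49 (SE 0.37, adjusted p = 0.0004). *Rorb* had the largest difference of the 9 in the D2 line and the only one without overlap between IPs and inputs. It ranged from 4.57 through 7.44 to 9.50 CPM in D2 IPs and from 31.4 through 35.9 to 40.9 CPM in D2 inputs, 5.17-fold less in the IPs (log2 fold change −2.37 ± 0.14 (SE), adjusted p = 3.21e-19). Overlap was not counted over all genes. *Cux2* was lower by 1.24-fold (log2 fold change −0.31 ± 0.04 (SE), adjusted p = 1.78e-08), which passed the adjusted p but not the fold change of 1.5 set for a call.

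Thus 8 of 9 members were called lower in D2 IPs, where 30.8% of the 15404 genes tested were called lower and 43.6% were called in either direction. The median of the members was −1.56 on the log2 scale and that of all genes −0.08. A further list of 25 measured cortical and glutamatergic genes gave 5 higher, 9 lower and a median of −0.47 in the same comparison. Of the 5 of these with the smallest adjusted p, *Tle4* (1.27) and *Lamp5* (1.22) were higher in D2 IPs, and *Lhx2* (−3.42), *Emx2* (−1.88) and *Etv1* (−0.74) were lower. *Tle4* encodes a corepressor and *Lamp5* a membrane protein of neurons.

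In the D1 line the same comparison gave both directions. *Slc17a7* was at 322, 895, 604 and 624 CPM in the D1 Con IPs, at 541, 682, 728 and 398 CPM in the D1 Res IPs and at 571, 515, 1152, 756 and 688 CPM in the D1 Sus IPs. In the D1 inputs it was at 176, 314 and 571 CPM (Con), 454, 192 and 884 CPM (Res) and 235, 229 and 368 CPM (Sus). The groups overlapped, and the IPs were on average on the higher side (log2 fold change 0.76 ± 0.36 (SE), adjusted p = 0.0508). This was short of the threshold in the main fit, which uses group means and does not pair an IP with its input. With the pool as block *Slc17a7* passed (0.91, adjusted p = 0.000526).

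*Tbr1* and *Emx1* were called higher in D1 IPs. *Tbr1* ranged from 39.7 through 82.2 to 144 CPM in D1 IPs and from 22.1 through 37.5 to 101 CPM in D1 inputs (log2 fold change 0.74 ± 0.28 (SE), adjusted p = 0.0162). *Emx1* ranged from 1.23 through 2.91 to 4.99 CPM in D1 IPs and from 0.692 through 1.26 to 3.26 CPM in D1 inputs (log2 fold change 0.91 ± 0.35 (SE), adjusted p = 0.017). In both genes the ranges overlapped. *Neurod2* (log2 fold change 0.69 ± 0.34 (SE), adjusted p = 0.0584) and *Neurod6* (log2 fold change 0.71 ± 0.39 (SE), adjusted p = 0.0914) had positive values that did not pass in the main fit.

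*Rorb* and *Fezf2* were called lower in D1 IPs, as in the D2 line. *Rorb* ranged from 8.87 through 19.5 to 33.1 CPM in D1 IPs and from 28.2 through 33.6 to 39.3 CPM in D1 inputs (log2 fold change −0.76 ± 0.14 (SE), adjusted p = 3.24e-06). *Fezf2* ranged from 0.179 through 1.101 to 4.58 CPM in the IPs and from 1.51 through 2.53 to 7.32 CPM in the inputs (log2 fold change −0.92 ± 0.38 (SE), adjusted p = 0.0248). *Slc17a6* was at 6.60 through 13.6 to 27.1 CPM in D1 IPs and 10.4 through 15.8 to 25.0 CPM in D1 inputs, a difference within its error (log2 fold change −0.21 ± 0.23 (SE), adjusted p = 0.387). *Cux2* was lower by 1.16-fold (log2 fold change −0.21 ± 0.04 (SE), adjusted p = 3.62e-05), under the fold change for a call.

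In all, 4 of 9 members were called in the D1 line, 2 higher and 2 lower, against 43.1% of all genes tested (13.8% higher and 29.3% lower). With the pool as a replicate block, in the 36 libraries of the 18 pools that have both an IP and an input, 7 of 9 were called, 5 of them higher, because *Slc17a7* (0.91, adjusted p = 0.000526), *Neurod2* (0.79, adjusted p = 0.00257) and *Neurod6* (0.93, adjusted p = 0.00299) passed. The call of *Fezf2* was lost without the input of D1 Con replicate 3 (−0.81), D1 Res replicate 3 (−0.68) or D1 Sus replicate 3 (−0.83), and *Slc17a7* passed in 7 of 22 fits that each left out 1 library of the D1 line, with values of 0.64 to 0.99 over the 22. In the Con libraries alone 1 member was called, *Rorb*, which was lower. Across all genes 6703 were called with the pool as block and 6179 in the Con libraries, against 6632 in the main fit. In the further cortical and glutamatergic list 10 genes were higher and 5 lower, with *Lamp5* (1.13), *Tle4* (0.94) and *Camk2a* (0.94) higher and *Lhx2* (−3.77) and *Emx2* (−1.77) lower among the 5 with the smallest adjusted p.

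**Figure D2:**
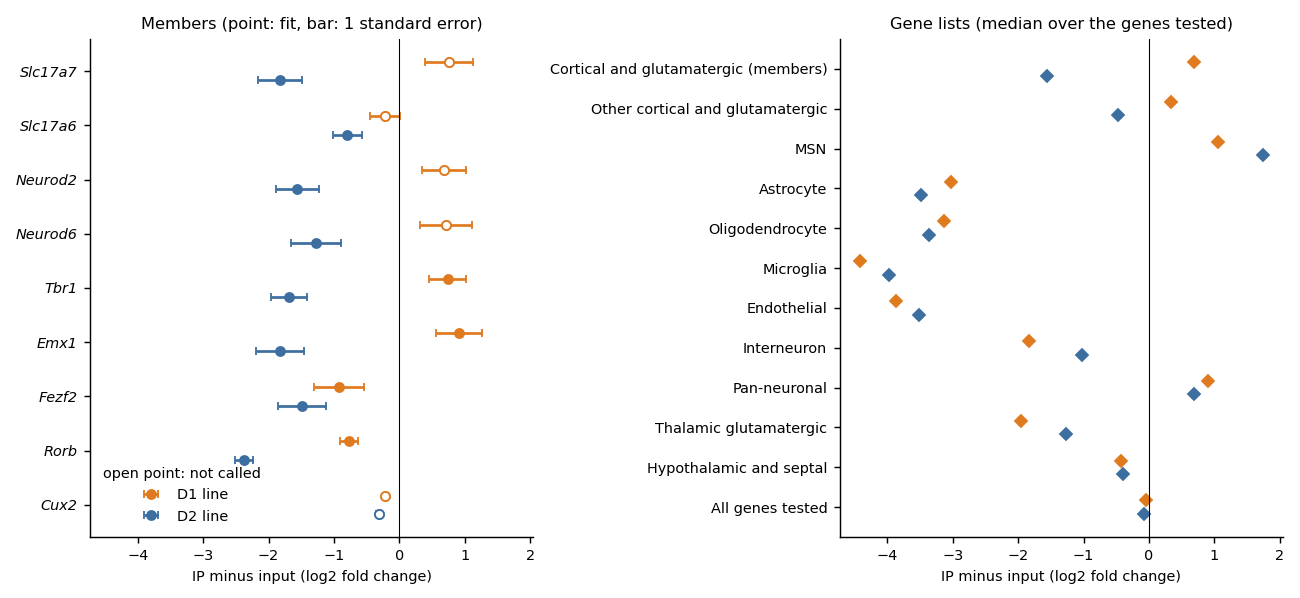
Log2 fold change of IP over input in the D1 and D2 lines, for each of the 9 genes with 1 standard error (left; open points were not called) and as the median of each marker list (right). Slc17a7, Neurod2, Neurod6, Tbr1 and Emx1 lie right of 0 in the D1 line and left of 0 in the D2 line, while astrocyte, oligodendrocyte, microglia and endothelial medians lie left of −3 in both lines.

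The IP to input ratio differed between the lines for 6 genes. The difference of the 2 ratios, D1 minus D2, was tested in a single model of all 46 libraries. It was positive for all 9 members and called for 6, where 7.59% of all genes were called and 4.93% were called higher. The largest difference was that of *Emx1* (log2 fold change 2.74 ± 0.51 (SE), adjusted p = 7.3e-05), followed by *Slc17a7* (log2 fold change 2.59 ± 0.50 (SE), adjusted p = 0.000138) and *Tbr1* (log2 fold change 2.42 ± 0.40 (SE), adjusted p = 1.24e-05). Also called were *Neurod2* (2.25, adjusted p = 0.000421), *Neurod6* (1.98, adjusted p = 0.00629) and *Rorb* (1.60, adjusted p = 6.44e-08). *Slc17a6* (0.58, adjusted p = 0.188), *Fezf2* (0.57, adjusted p = 0.482) and *Cux2* (0.10, adjusted p = 0.252) were not. In control libraries alone 4 of the 6 were called, and *Neurod6* (2.08, adjusted p = 0.0551) and *Emx1* (2.29, adjusted p = 0.0536) fell short.

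The same libraries were also read pool by pool. The IP to input ratio of *Slc17a7* ranged from 0.824 through a median of 2.25 to 3.55 over the 9 D1 pools and from 0.112 through 0.284 to 0.726 over the 9 D2 pools. It was above 1 in 8 of 9 D1 pools and in 0 of 9 D2 pools, and the lines did not overlap. The lines also did not overlap for *Tbr1* (D1 0.865 to 3.45, D2 0.115 to 0.759), for *Emx1* (D1 1.13 to 4.21, D2 0.125 to 0.648) or for *Rorb* (D1 0.363 to 0.988, D2 0.161 to 0.243). They overlapped for the other 5 genes. The share of all genes without such overlap was not counted. *Slc17a6* had ratios of 0.533 to 1.83 in D1 pools and 0.304 to 1.04 in D2 pools, and *Cux2* stayed close to 1 in both, from 0.781 to 1.03 and from 0.721 to 0.971.

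**Figure D3:**
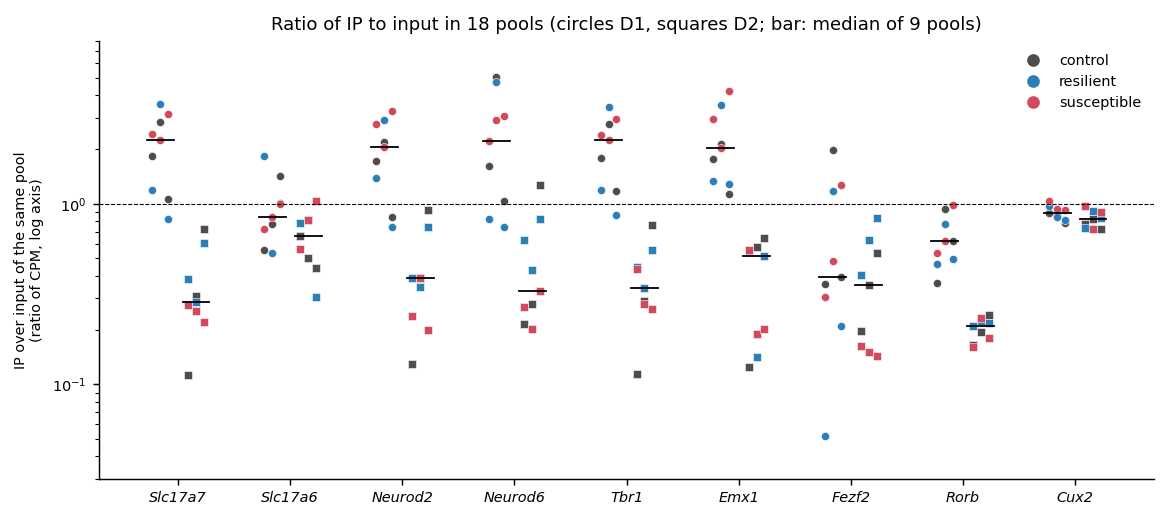
Ratio of the IP to the input CPM of the same pool (log axis) for each gene, with 9 D1 pools (circles) and 9 D2 pools (squares) coloured by stress group and bars at the medians. The dashed line marks equal levels. For Slc17a7, Tbr1, Emx1 and Rorb every D1 pool lies above every D2 pool.

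D1 IPs held more RNA of 6 of the genes than D2 IPs, and no gene passed the threshold between the inputs of the lines. The direct comparison of the 13 D1 with the 15 D2 IPs called 6 members higher in D1, against 4.94% of 14224 genes called higher and 7.66% called in all. *Slc17a7* ranged from 322 through 624 to 1152 CPM in D1 IPs, so that every D1 IP exceeded the highest D2 IP of 244.6 CPM, and differed 4.69-fold (log2 fold change 2.23 ± 0.29 (SE), adjusted p = 2.97e-07). *Tbr1* also had no overlap, with 39.7 CPM in its lowest D1 IP and 29.5 CPM in its highest D2 IP (log2 fold change 2.15 ± 0.23 (SE), adjusted p = 9.5e-09). How many of all genes separate in this way was not counted. *Emx1* (log2 fold change 2.32 ± 0.30 (SE), adjusted p = 3.93e-07), *Neurod2* (log2 fold change 1.89 ± 0.26 (SE), adjusted p = 1.13e-06), *Neurod6* (log2 fold change 1.62 ± 0.32 (SE), adjusted p = 0.000145) and *Rorb* (log2 fold change 1.45 ± 0.15 (SE), adjusted p = 6.08e-09) were higher in D1 IPs with overlapping ranges. *Slc17a6* (0.43, adjusted p = 0.0684, and 0.57, adjusted p = 0.00555, still under the fold for a call without pool D2 Sus 1), *Fezf2* (0.44, adjusted p = 0.365) and *Cux2* (0.09, adjusted p = 0.0615) did not pass.

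In control IPs alone the same 6 genes were called, against 3.42% of genes called higher and 4.98% in all, with log2 fold changes of 2.22 for *Slc17a7*, 1.89 for *Neurod2*, 1.69 for *Neurod6*, 2.12 for *Tbr1*, 2.16 for *Emx1* and 1.55 for *Rorb*. These libraries are part of those above. *Neurod6* (adjusted p = 0.0423) was the weakest of them, and its call was lost in 6 of the fits that each left out 1 control library, for example without D1 Con replicate 2 (1.31, adjusted p = 0.195). Over all D1 and D2 IPs the further cortical list had 9 genes higher in D1 and 2 lower of 24 tested, with a median of 0.23. Named after their values were seen, the 2 lower were *Rspo1* and *Slc17a8*, the transporter VGLUT3.

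Other cell markers were compared between the IPs of the lines as well, and their part in the difference was not tested. Of all genes 4.94% were called higher in D1 IPs and 7.66% in either direction. The summed MSN list was at 5191 to 8342 CPM in D1 IPs and 9219 to 12529 CPM in D2 IPs, with 3 genes higher and 4 lower of 8. It holds markers of the D1 subtype (*Drd1*, *Tac1*, *Pdyn*) and of the D2 subtype (*Drd2*, *Adora2a*, *Penk*). Its sum is therefore no measure of MSN content between the lines. The summed astrocyte list was at 336 to 556 CPM in D1 IPs and 267 to 524 CPM in D2 IPs, the oligodendrocyte list at 461 to 738 and 382 to 623 CPM, and the microglia list at 9.88 to 16.3 and 13.2 to 20.2 CPM. Of these 18 glial genes 1 was called higher and 1 lower, and the glial sums overlapped between the lines. The interneuron list, at 54.9 to 88.8 CPM in D1 IPs and 91.0 to 123 CPM in D2 IPs, had 2 genes higher and 3 lower of 6, and the list of 4 thalamic genes, at 4.73 to 13.3 and 4.58 to 26.1 CPM, had 1 lower.

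In the inputs, no member was called between the lines (edgeR quasi-likelihood, 0 of 9 called and 1 at an unadjusted p under 0.05, with 0.0199% of all genes called and 5.19% at an unadjusted p under 0.05, and 0 called by DESeq2). *Slc17a7* was at 176 through 314 to 884 CPM in D1 inputs and 51.1 through 520.4 to 820.5 CPM in D2 inputs (log2 fold change −0.34 ± 0.38 (SE), adjusted p = 0.973). *Rorb* had the smallest p, with −0.14 ± 0.06 (SE, unadjusted p = 0.0414, adjusted p = 0.945). The 8 members other than *Cux2* had values below 0 (less in the D1 line), none of them called, and without pool D2 Sus 1 that of *Slc17a6* was above 0 (0.11) and that of *Cux2* below it.

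Within a group, libraries differed widely and 7 of the genes moved together. From the lowest to the highest input, *Slc17a7* spanned 51.1 to 884 CPM, *Neurod2* 2.86 to 54.8 CPM, *Neurod6* 1.01 to 30.7 CPM and *Tbr1* 13.7 to 101 CPM. *Rorb* spanned only 28.2 to 40.9 CPM and *Cux2* 35.5 to 46.8 CPM over the same 18 inputs. After group means were subtracted from log2 CPM, *Slc17a7* correlated with *Neurod2* (r = 0.989), *Tbr1* (r = 0.984), *Neurod6* (r = 0.980), *Emx1* (r = 0.968), *Fezf2* (r = 0.905) and *Rorb* (r = 0.838) over the 18 inputs. These are descriptions across libraries that share punches, depth and scaling.

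Over all 21 pairs of the 7 genes other than *Slc17a6* and *Cux2*, r had a median of 0.920 in inputs (lowest 0.797, n = 18), 0.907 in D1 IPs (lowest 0.699, n = 13) and 0.873 in D2 IPs (lowest 0.726, n = 15). *Cux2* joined them in inputs (r of 0.685 to 0.846) but not in D1 IPs (−0.361 to 0.230) or D2 IPs (−0.459 to −0.0132).

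*Slc17a6*, the transporter of thalamic and hypothalamic neurons, ran the other way. Its r with the 7 genes was −0.898 to −0.671 in inputs and −0.897 to −0.664 in D2 IPs, and −0.346 to 0.172 in D1 IPs. Pool D2 Sus 1 was the extreme, with the lowest *Slc17a7* (51.1 CPM in the input and 14.1 CPM in the IP) and the highest *Slc17a6* (43.8 and 24.6 CPM) of the D2 line. Without that pool, r between *Slc17a6* and *Slc17a7* was −0.68 in inputs (n = 17) and −0.64 in D2 IPs (n = 14), against −0.87 and −0.83 with it. In the same pool the summed thalamic list was the highest of the D2 line in both kinds of library, at 41.5 CPM in the input (others 19.1 to 35.9) and 26.1 CPM in the IP (others 4.58 to 15.6), and the list of hypothalamic and septal genes was second highest in both. Its input also held the highest oligodendrocyte sum (5028 CPM, others 3752 to 4554) and microglia sum and the lowest astrocyte, pan-neuronal and interneuron sums of the D2 inputs, and its IP the lowest MSN sum (9219 CPM, others 10281 to 12529) and astrocyte sum of the D2 IPs.

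**Figure D4:**
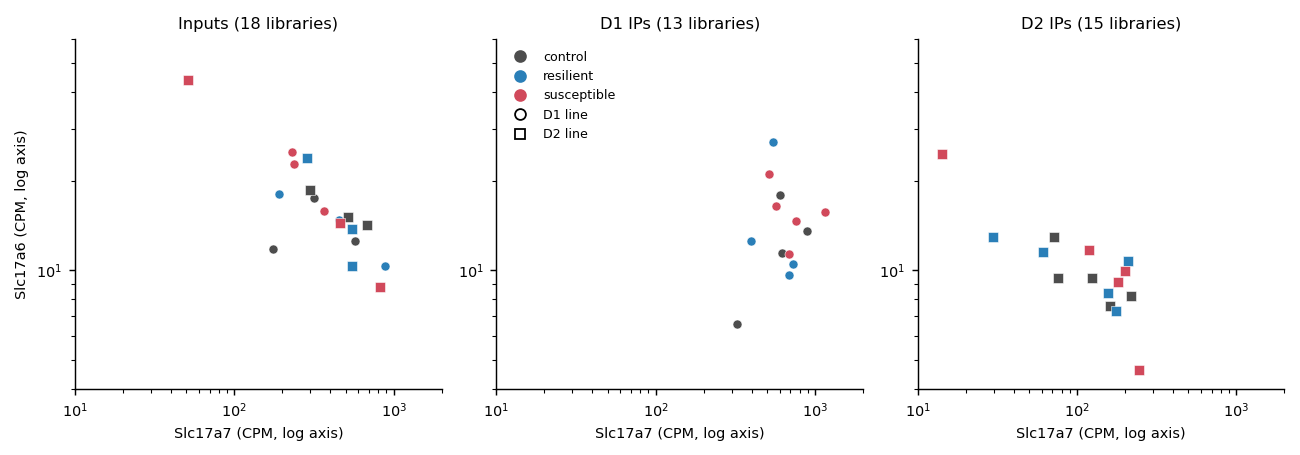
Slc17a6 against Slc17a7 (CPM, both axes log) in the 18 inputs, 13 D1 IPs and 15 D2 IPs, with circles for the D1 line, squares for the D2 line and colours for stress groups. In inputs and D2 IPs Slc17a6 is high where Slc17a7 is low, with pool D2 Sus 1 at the upper left of both, and D1 IPs show no such trend (r = 0.15).

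The genes outside both cortical lists that were most alike to the mean of the members over the 18 inputs, among 12544 genes, were *Prss12* (r = 0.989), *Cck* (r = 0.988), *Hs3st2* (r = 0.988), *3110035E14Rik* (r = 0.987) and *Gm11549* (r = 0.979). Over the 28 IPs, among 11739 genes, they were *Prss12* (r = 0.980), *3110035E14Rik* (r = 0.970), *Gm11549* (r = 0.964), *Cck* (r = 0.951) and *Rtn4rl2* (r = 0.945). *Cck* encodes the neuropeptide cholecystokinin, *Prss12* a serine protease of neurons and *Rtn4rl2* a receptor of the Nogo receptor family. Of the members, *Slc17a7* was nearest to their own mean in inputs (r = 0.994) and *Tbr1* in IPs (r = 0.971).

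No relation between the level in an IP and the level in the input of the same pool passed the threshold. An IP and an input with the same title were taken to come from 1 homogenate. Their levels were compared over the 9 pools of each line by exact permutation tests, two-sided, on log2 CPM. Benjamini-Hochberg adjustment ran over the 18 relations. None of the 18 passed. In the D1 line *Slc17a7* gave r = 0.39 (exact p = 0.302, adjusted p = 0.397) and rho = 0.47 (exact p = 0.213), and *Emx1* gave the largest r of 0.55 (exact p = 0.124, adjusted p = 0.279) and rho = 0.47 (exact p = 0.213). In the D2 line *Slc17a7* gave r = 0.79 (exact p = 0.0911, adjusted p = 0.268) but rho = 0.18 (exact p = 0.644). Without the 2 pools whose inputs lay farthest from the median, D2 Res 3 and D2 Sus 1, r was −0.36. Without D2 Sus 1 alone, over 8 pools, it was −0.37, so that the positive relation rested on that pool. *Neurod6* gave r = 0.82 (exact p = 0.0860, adjusted p = 0.268) and rho = 0.08. Its r was −0.08 without its 2 farthest pools and −0.34 without D2 Sus 1 alone. *Neurod2* gave r = 0.78 (exact p = 0.104, adjusted p = 0.268) and rho = 0.02. Its r was −0.61 without its 2 farthest pools and −0.50 without D2 Sus 1 alone. *Rorb* in the D2 line was the member whose r changed least without its 2 farthest pools, from 0.66 (exact p = 0.0532, adjusted p = 0.268) to 0.61. Its rho was 0.70 (exact p = 0.0433), and its r was 0.47 without D2 Sus 1 alone. With stress group means subtracted and pools permuted within groups, the smallest p that the arrangements allow is 0.00463, so that a single relation could not pass the adjustment over 18.

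No comparison of stress groups passed an adjusted p for any of the genes. In these comparisons an unadjusted p under 0.05 was also counted. *Slc17a7* in D2 IPs was at 76.03, 161, 217, 71.95 and 125 CPM in Con, at 209.8, 156, 175, 29.8 and 60.7 CPM in Res and at 14.1, 118, 182, 199 and 245 CPM in Sus libraries, with overlap of all 3 groups. Its log2 fold change for Sus against Con was 0.27 ± 0.49 (SE, unadjusted p = 0.582) in D1 IPs and 0.22 ± 0.47 (SE, unadjusted p = 0.636) in D2 IPs. Their difference was 0.05 ± 0.68 (SE, unadjusted p = 0.943). Without pool D2 Sus 1 the D2 value of *Slc17a7* was 0.52 and the difference −0.25, and that of *Slc17a6* in D2 IPs turned from 0.34 to −0.10, none of them past the threshold.

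Among the 9 comparisons of stress groups in D1 IPs, D2 IPs and inputs, 1 member passed an unadjusted p under 0.05 in 1 of them and 0 passed an adjusted p, as did 0% of all genes in 8 of the comparisons and 0.00703% in D1 Res against Con. *Rorb* was higher in D1 Sus than in D1 Res IPs, at 17.998, 18.8, 33.1, 26.7 and 24.01 CPM against 15.6, 22.1, 19.5 and 8.87 CPM, with overlap (0.55 ± 0.25 SE, unadjusted p = 0.0384, adjusted p = 0.999). In that comparison 4.23% of all genes passed the unadjusted p. The call was lost with DESeq2 and without D1 Res replicate 1 or 4 or D1 Sus replicate 3 or 4.

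In D1 Sus against D1 Con, 0 of 9 passed against 5.34% of all genes, and all 9 values lay above 0, with a median of 0.34. Without D1 Con replicate 2, which held the highest level of 7 of the members among the 4 D1 Con IPs, 3 passed an unadjusted p (*Fezf2* 1.72, *Rorb* 0.64 and *Cux2* 0.16, adjusted p of 0.854 to 0.855), and without D1 Con replicate 4 or D1 Sus replicate 3 *Cux2* alone passed (0.18 and 0.15). Across all genes 835, 811 and 921 passed the unadjusted p in these fits, against 759 in the main fit. In the other IP comparisons 0 of 9 passed, against 2.11% of genes in D1 Res against Con, 3.68% in D2 Sus against Con, 3.02% in D2 Res against Con and 1.66% in D2 Sus against Res. No difference of a stress effect between the lines passed an unadjusted or an adjusted p for a member, where 1.82% (Sus against Con), 2.36% (Res against Con) and 2.03% (Sus against Res) of all genes passed the unadjusted p and 0% the adjusted p.

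In inputs, again 0 of 9 passed in Sus against Con (4.51% of genes passed), Res against Con (3.25%) and Sus against Res (5.47%). The smallest p was that of *Slc17a6* in Sus against Con, which was at 22.8, 24.97 and 15.8 CPM in D1 Sus inputs and 43.8, 14.4 and 8.80 CPM in D2 Sus inputs, and at 11.9, 17.5 and 12.5 CPM and 14.3, 15.1 and 18.6 CPM in the Con inputs (0.54 ± 0.28 SE, unadjusted p = 0.0697, adjusted p = 0.979). It passed the unadjusted p without D2 Sus input replicate 2 (0.65) or 3 (0.72). Across all genes 725 and 1286 passed in these fits, against 679 in the main fit. The value of *Slc17a6* was 0.19 without the input of pool D2 Sus 1, which held 43.8 CPM. *Slc17a7* was at −0.25 ± 0.46 (SE, unadjusted p = 0.599) in the same comparison and at −0.02 without that pool.

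IPs labelled Sirt1-KO had higher mean levels of 8 of the 9 genes than D1 Con IPs, short of the threshold. The targeted gene itself was at 15.1, 16.2, 13.2 and 10.2 CPM in the libraries labelled Sirt1-KO and 13.1, 16.6, 14.8 and 14.3 CPM in D1 Con (log2 fold change −0.10 ± 0.13 SE, adjusted p = 0.768), with overlap. This count covers the whole transcript, including exons outside a floxed part, and which exons were floxed is not given in the sources used here, so it does not check the labels. The labels give no preparation or sequencing dates, and no age for the Sirt1-KO mice. A difference in handling or age and the genotype therefore cannot be told apart. The labels name no floxed Sirt1 allele for the D1 Con mice.

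*Slc17a7* was at 1006, 1225, 1319 and 679.95 CPM in Sirt1-KO libraries and 301, 837, 568 and 583 CPM in D1 Con libraries, scaled within the second table. Of the Sirt1-KO values 3 of 4 exceeded every control, and the fit gave log2 fold change 0.89 ± 0.26 (SE), adjusted p = 0.112. *Neurod2* had the smallest adjusted p of the 9, at 66.1, 67.99, 91.7 and 40.7 CPM against 18.9, 48.4, 30.8 and 36.8 CPM (log2 fold change 0.99 ± 0.27 (SE), adjusted p = 0.0839). *Neurod6* (0.90 ± 0.30 SE, adjusted p = 0.145), *Tbr1* (0.81 ± 0.25 SE, adjusted p = 0.122) and *Emx1* (0.73 ± 0.31 SE, adjusted p = 0.254) had the same sign.

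*Fezf2* had the largest value of the 9, at 4.94, 4.04, 2.29 and 3.28 CPM against 0.509, 3.41, 1.03 and 0.41 CPM (log2 fold change 1.45 ± 0.52 (SE), adjusted p = 0.18), and D1 Con replicate 2 was the control among the Sirt1-KO values. *Rorb* had 0.53 ± 0.24 (SE, adjusted p = 0.293). *Cux2* was the only member without overlap, at 34.7, 40.2, 34.7 and 42.8 CPM against 29.5, 32.9, 30.6 and 33.8 CPM, with a log2 fold change of 0.27 (adjusted p = 0.134). How many of all genes lacked overlap was not counted. *Slc17a6* had a value below 0, at 10.7, 10.1, 8.38 and 7.80 CPM against 6.17, 12.7, 16.9 and 10.7 CPM (log2 fold change −0.33 ± 0.24 (SE), adjusted p = 0.531).

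By edgeR, 0 of 9 members were called against 0.749% of 13626 genes. Of the 9, 7 had an unadjusted p under 0.05 (not *Slc17a6* or *Rorb*), as had 17.3% of all genes, and DESeq2 called 0. The median over the members was 0.81 and that over all genes 0.00. The count rested on single libraries. Without Sirt1-KO replicate 5, which held the lowest *Slc17a7* of its group, 4 members were called (*Slc17a7* 1.04, *Neurod2* 1.16, *Neurod6* 1.05 and *Tbr1* 0.95), and without D1 Con replicate 2 there were 2 (*Neurod6* 1.28 and *Fezf2* 2.46). Across all genes 386 were called without Sirt1-KO replicate 5 and 106 without D1 Con replicate 2, against 102 in the main fit. The further cortical list gave 0 called of 24 with a median of 0.26, and its summed level did not overlap between groups, at 5308 to 5795 CPM in Sirt1-KO and 4219 to 4600 CPM in D1 Con libraries. This sum need not follow most genes of the list. It was higher in D2 IPs (3841 to 4589 CPM) than in D2 inputs (1971 to 3399 CPM), where the list's median fold change was below 0. The part of other lists was not tested. The summed hypothalamic and septal list was at 36.6 to 52.7 CPM in Sirt1-KO and 75.7 to 85.9 CPM in D1 Con libraries. The astrocyte list was at 453 to 572 and 314 to 446 CPM. The MSN list overlapped, at 4212 to 6081 and 5756 to 7805 CPM, as did the thalamic list, at 3.28 to 9.14 and 4.61 to 9.62 CPM.

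**Figure D5:**
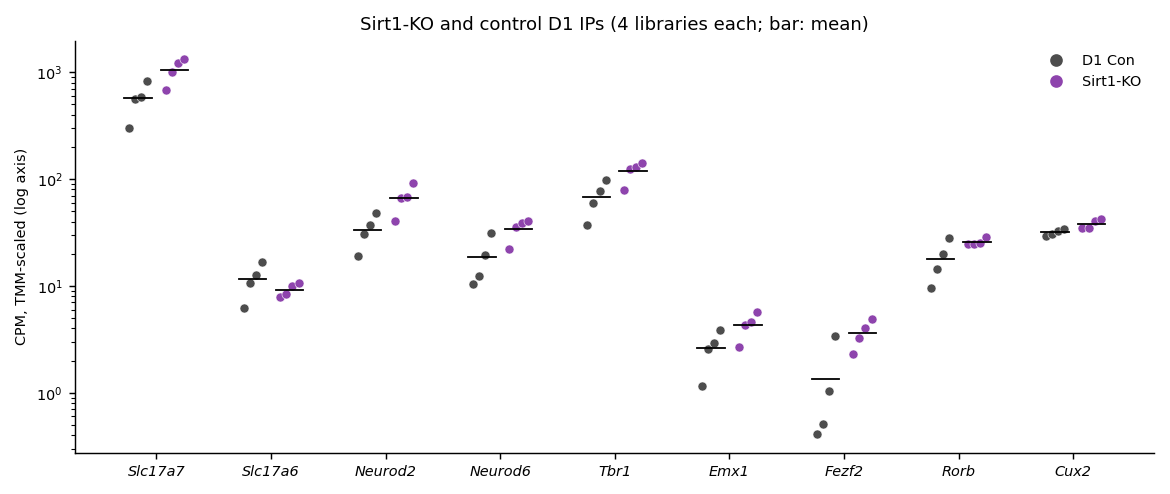
CPM (log axis, scaled within the second table) of the 9 genes in 4 D1 Con and 4 Sirt1-KO IPs, with bars at group means. Slc17a7, Neurod2, Neurod6, Tbr1 and Emx1 each have 3 Sirt1-KO libraries above every control, Cux2 has all 4 above every control by a small margin, and Slc17a6 overlaps.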

How the data were processed

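RNA from anti-HA precipitates and inputs of NAc homogenates was poly-A selected and sequenced by the authors in 4 randomly composed sets, and the set of each library is not given in the sources used here. Per the labels and the study's methods, reads were trimmed with cutadapt, checked with FastQC, aligned to mm10 with STAR and counted per gene with HTSeq, and the deposited values are raw counts. Tool versions and the strand setting are not given in the sources used here. The 5 entries that name no gene were left out of all fits and library sizes, and took 18.0 to 28.3% of counts in IPs and 35.9 to 40.0% in inputs. A further 2 columns of per-sample values matched no label and were not used.

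Counts were filtered (filterByExpr, minimum count 10, minimum total 15), scaled by TMM and fitted with edgeR 4.0.16 (quasi-likelihood, R 4.3.3) on all genes, with 15404 genes in the model of 46 IPs and inputs, 14224 in that of 28 IPs, 15063 in that of 18 inputs and 13626 in that of 8 D1 Con and Sirt1-KO IPs. All 9 members passed the filter in each. A call needed a fold change over 1.5 and a Benjamini-Hochberg adjusted p under 0.05, or for stress groups an unadjusted p under 0.05 with no limit on fold. CPM values are TMM-scaled, and levels were compared between genes only per kilobase of exon (GENCODE, GRCm38). Overlap of ranges was examined for the members and marker lists only, with no share over all genes. The script was tested on simulated counts. Correlations used Python 3.11.15 with scipy 1.17.1.

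An IP and an input of the same name were taken to come from 1 homogenate, so the pool pairs them. Their deviations from group means correlated with a median r of 0.10 over 18 pools (above 0.1 in 9). The median was 0.12 over 66 pairs of IPs from different groups that share only a number (above 0.1 in 37). It was −0.009 over 45 such pairs of inputs (above 0.1 in 16). These values therefore do not check the pairing. No replicate pair of the 76 within groups agreed within counting noise. The members and marker lists were chosen with earlier results of these data known. Genes of the other cortical list were named by smallest adjusted p (5 per comparison), and genes alike in pattern by r with the members' mean (5 per kind of library). Alternatives were DESeq2 1.42.0, other scalings and filters, smaller sets of libraries, the replicate block and leaving out each library, and leaving out pool D2 Sus 1 was chosen after seeing the data.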

Additional observations from a re-analysis of the deposited data

Results flagged for a closer look

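The difference between the D1 and D2 lines in the IP to input log2 ratio passed its own test for *Slc17a7* (2.59), *Neurod2* (2.25), *Neurod6* (1.98), *Tbr1* (2.42), *Emx1* (2.74) and *Rorb* (1.60). Among the 63 groups of 4 or 5 libraries examined for a single library far from the others, 2 held one, and chance alone gives about 1 in 20. *Slc17a6* was at 27.1 CPM in the D1 Res 1 IP, where the next D1 Res IP held 12.5 CPM. *Tbr1* was at 144 CPM in the D1 Sus 3 IP, where the next D1 Sus IP held 91.9 CPM.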

How the results depend on the processing

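No gene changed direction past a threshold under any alternative run. Of the recomputed counts of called members 419 stayed within 1.5 times the main count and 28 did not, and these follow, with the cause not tested where none is given. In IP against input of the D1 line, 4 members were called, against 2 with a mean of at least 50 counts, where *Emx1* and *Fezf2* are filtered out and 7 members are tested, 7 with only the libraries compared, 7 with the pool as replicate block and 1 in control libraries, and 4 to 6 with 1 library left out. The D1 Sus against Con count of 0 became 1 with a mean of at least 50 counts and 1 with only the libraries compared (*Cux2* in both), and was 0 to 3 with 1 library left out. The D1 Sus against Res count of 1 became 0 with DESeq2, 2 with only the libraries compared, 0 with an adjusted p and 0 to 1 with 1 library left out. With 1 library left out, the count was 0 to 1 in D2 Sus against Res IPs (1 without D2 Res replicate 1, *Emx1*) and 0 to 1 in each of the 3 comparisons of stress groups in inputs (*Slc17a6* or *Fezf2*).

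In Sirt1-KO against D1 Con, the count of 0 became 1 with every gene of at least 1 count (*Neurod2*), 0 to 4 with 1 library left out, and 7 with the replicate number as block, where the median was 1.23. Across all genes 170 were called with every gene of at least 1 count and 593 with the block, against 102 in the main fit. Those libraries share only a number (r of 0.023 to 0.147 over 3 shared numbers, 1 above 0.1). The replicate number as block moved no other count of called members by over 1.5 times. The pool as block moved only that of IP against input in the D1 line. *Neurod6* between control IPs of the lines was not called by DESeq2 (adjusted p = 0.0730). Leaving out pool D2 Sus 1 changed no call, but moved or turned several stress values and several same-pool correlations of the D2 line, all short of the threshold. Low counts limit *Emx1* and *Fezf2*, and 4 to 5 IPs per group limit the stress comparisons.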
